A study of Bos taurus with 4 samples.

Results

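The trophectoderm transcription factors described here are CDX2, GATA3, TEAD4, TFAP2C, EOMES, HAND1 and ASCL2, a set of 7 genes. They were chosen by name, and their probes were all those to which the platform annotation gave 1 of these symbols. That rule took 10 of the 43794 embryo probes on the array: 3 for TFAP2C, 2 for TEAD4 and 1 for each of the others. All 7 symbols are current RefSeq gene symbols of cattle, and all 10 probes passed the filter on dim probes and were tested.

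RNA came from cattle (Bos taurus) blastocysts made by in vitro maturation, fertilisation and culture, with oocytes from slaughterhouse ovaries. The groups were embryos sired with sperm collected when bulls were 16 months old and embryos sired with sperm collected at 10 months. The sperm came from 4 bulls sampled at either age. Every one of the 4 two-colour arrays carried 1 amplified RNA sample of either age, and the labels do not say which bull stands on which array. The 16-month sample carried Cy3 on replicates 1 and 2 and Cy5 on replicates 3 and 4, with the 10-month sample in the other dye. Nothing in the labels says how many embryos a sample held. Because whole blastocysts were measured, fewer trophectoderm cells and less RNA per trophectoderm cell cannot be told apart.

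The trophectoderm is the outer epithelium of the blastocyst and the source of the embryonic part of the placenta. In the mouse, outer cells keep the Hippo kinases inactive, so that the coactivators YAP1 and WWTR1 stay in the nucleus, bind TEAD4 and switch on Cdx2 and Gata3. TFAP2C acts beside them, EOMES maintains trophoblast stem cells, and HAND1 and ASCL2 act later in trophoblast differentiation, all as known from the mouse. In cattle the segregation is slower, and the pluripotency factor POU5F1 is still found in trophectoderm at the blastocyst stage.

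Markers of the labelled tissue were above background, beside some of other cells. Being above background (defined below) was common: among 13495 named genes tested, 8946 outside the set of 7 were so in all 8 samples. Of 7 trophectoderm markers measured, such as the keratins KRT8 and KRT18 and the water channel AQP3, 6 were above background in all 8 samples, and so were 7 of 7 markers of inner cell mass and primitive endoderm. Of other cells, 2 of 7 oocyte markers, 1 of 7 cumulus and granulosa markers, 0 of 7 sperm and testis markers and 2 of 6 leukocyte and erythroid markers were above background in all 8. The last pair were HBA and PTPRC, and PTPRC lay at 22.5 to 101 times the negative control. Over the 6 genes of that list the mean signal ran from 5.10 to 17.7 times the negative control at 16 months and from 6.93 to 18.5 times at 10 months. PTPRC made up most of that mean, and no other gene of the list exceeded 5.41 times in any sample. The part of other cells in the ratios below was not tested.

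Signal was read against 153 negative control spots per array. A spot counted as above background where its median intensity exceeded the median of these controls, in the same array and channel, by more than 2 median absolute deviations. That threshold lay at 1.17 to 1.26 times the control median. By this measure 8 of the 10 probes were above background in all 8 samples. The exceptions were the probes of EOMES and HAND1. Passing in all 8 samples was common on the array and not particular to these factors. Of 13495 named genes tested, 8946 outside the set passed in all 8 too.

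TFAP2C, which encodes the transcription factor AP-2 gamma, had a strong signal. Its brightest probe (EMBV3_20670) gave spot medians of 24869, 18207, 33420 and 24038 in 16-month samples on replicates 1 to 4, and of 21348, 22529, 19086 and 21522 in 10-month samples. These were 92.4 to 343 times the negative control at 16 months and 95.7 to 369 times at 10 months. Its other probes lay at 8.26 to 21.4 times the control at 16 months and 8.98 to 21.1 times at 10 months (EMBV3_17753), and at 2.43 to 6.29 and 1.59 to 4.26 times (EMBV3_27962). The wide ranges followed the dye. Every Cy5 reading of the brightest probe was at least 267 times the control, and every Cy3 reading was at most 106 times.

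CDX2, the homeobox gene that specifies trophectoderm in the mouse, had only a low signal with its single probe (EMBV3_31912). Spot medians were 382, 263, 202 and 128 at 16 months and 164, 115, 267 and 338 at 10 months, or 1.34 to 1.96 and 1.38 to 2.05 times the negative control. The zinc finger factor GATA3 (EMBV3_19232) lay at 2.54 to 4.77 times the control at 16 months and 1.71 to 4.34 times at 10 months. TEAD4, the DNA-binding partner of the YAP1 and WWTR1 coactivators, lay at 3.33 to 9.20 and 1.67 to 9.97 times with its brighter probe (EMBV3_07208). Its other probe (EMBV3_16153) lay at 1.37 to 1.55 times at 16 months and 1.30 to 1.62 times at 10 months. The helix-loop-helix factor ASCL2 (EMBV3_15658), an imprinted gene in the mouse, lay at 1.33 to 2.69 and 1.84 to 4.25 times.

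EOMES, a T-box factor, was barely above the controls. Its probe (EMBV3_29868) gave 1.28, 1.04, 1.33 and 1.24 times the negative control in 16-month samples and 1.25, 1.05, 1.08 and 1.11 times in 10-month samples. It was above background in 3 of 4 samples at 16 months and 1 of 4 at 10 months, and by dye in 3 of 4 Cy5 samples and 1 of 4 Cy3 samples. HAND1, a helix-loop-helix factor (EMBV3_00060), gave 1.18, 1.18, 1.42 and 1.73 times at 16 months and 1.38, 1.25, 0.954 and 1.18 times at 10 months. It was above background in 2 of 4 samples at either age. By dye, the HAND1 probe passed in 4 of 4 Cy5 samples and in 0 of 4 Cy3 samples. Neither gene was above the highest negative control spot in more than 1 of 8 samples.

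**Figure D1:**
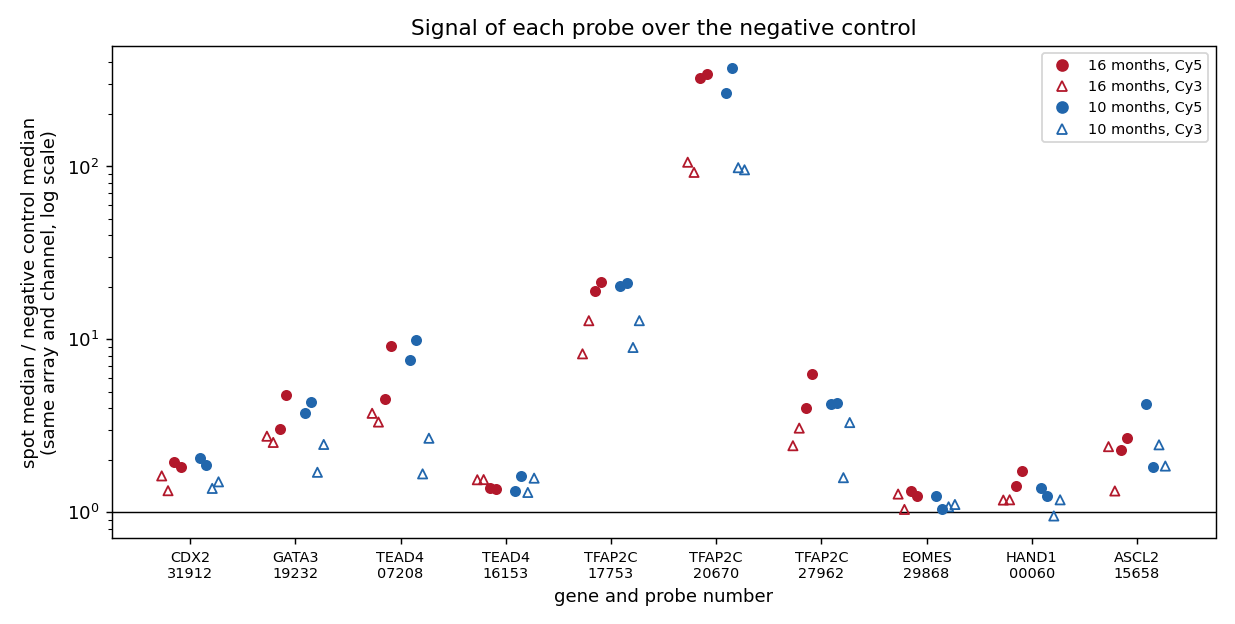
Spot median of each probe divided by the negative control median of the same array and channel (log scale), for 16-month samples (red) and 10-month samples (blue), in Cy5 (filled circles) and Cy3 (open triangles). Each point is 1 sample. The brightest TFAP2C probe lies between 92.4 and 369, and the EOMES and HAND1 probes lie between 0.954 and 1.73, beside the line at 1 where a spot equals the control.

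Ratios between the ages are given as log2 of 10 over 16 months, so that a negative value means a higher signal at 16 months. They were fitted with limma over the 4 arrays, with a term for the dye, and p-values were adjusted by the Benjamini-Hochberg method over all 36325 tested probes. None of the 10 probes passed the adjusted threshold of 0.05, and neither did any other probe on the array (0%). The adjusted p-values of the 10 lay between 0.957 and 0.998. At an unadjusted p under 0.05 there was 1 of 10, the HAND1 probe, against 3.96% of all tested probes. The normalised levels of the ages overlapped for 10 of 10 probes, and 1.03% of all tested probes had levels without overlap. The 95% intervals of the 10 computed ratios reached from 0.617-fold to 1.59-fold, so that a 2-fold difference in the computed ratio lay outside each of them. The offset of 50 pulls ratios of dim probes toward 0, so that bound does not extend to the RNA itself.

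Each gene was represented by its brightest probe. In that form 6 of the 7 genes had a negative ratio and 1, ASCL2, a positive one, with a median of -0.18. CDX2, at -0.0058, was counted among the negative ones. Over all 13495 named genes tested the median was -0.0026, 50.8% were negative and 4.47% had an unadjusted p under 0.05. The median of the 7 was 0.08, 0.20, -0.38 and -0.25 on replicates 1 to 4. It was thus positive on both arrays with the 16-month sample in Cy3 and negative on both arrays with it in Cy5. Replicate 3 had the widest ratios over all tested probes, with an SD of 0.47 against 0.30 to 0.32 on the other arrays. Over the 36325 probes, array ratios also split by dye orientation, as a description across probes. They correlated at 0.32 (replicates 1 and 2) and 0.12 (replicates 3 and 4) within an orientation, and at -0.30 to -0.14 between orientations. A dye effect passed adjustment for 4 of 36325 tested probes (limma adjusted p under 0.05). The cause of the split was not tested. With spot means in place of spot medians the median of the 7 was -0.075, and 4 of 7 were negative, with CDX2, EOMES and ASCL2 above 0.

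TEAD4 had ratios that went with the dye. For its brighter probe the normalised log2 level was 9.11, 9.02, 8.84 and 9.52 in 16-month samples on replicates 1 to 4, and 9.53, 9.69, 7.85 and 8.51 in 10-month samples. The log2 ratio was 0.42 and 0.66 on replicates 1 and 2 and -0.99 and -1.01 on replicates 3 and 4. After normalisation the channel with Cy5 was the brighter on all 4 arrays. In raw spot medians Cy3 was the brighter on replicates 1 and 2 (879 against 607, and 656 against 608). On replicate 4 only 0.468% of tested probes had a ratio as low or lower, and on replicate 2 the ratio was above that of 97.6% of them.

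The fitted dye effect of that TEAD4 probe was 0.77 ± 0.12 (log2 Cy5 over Cy3, SE, 4 arrays). A dye effect of 0.75 or more, of either sign, was fitted for 211 of 36325 tested probes. The dye effect itself did not pass adjustment (limma adjusted p = 0.110). With it taken out, the age ratio was -0.23 ± 0.12, or 0.853-fold, with a 95% interval from -0.50 to 0.04 (limma adjusted p = 0.957). The other TEAD4 probe went the opposite way between dyes, at -0.43, -0.31, 0.04 and 0.48 on replicates 1 to 4, with a fitted age ratio of -0.055 ± 0.13, which ran from -0.16 without replicate 4 to 0.054 without replicate 3. With spot means the brighter probe was at 0.70, 0.70, -0.85 and -0.89, and its fitted age ratio was -0.086 ± 0.043.

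HAND1 had the smallest unadjusted p of the set. Its normalised log2 level was 6.84, 6.88, 7.13 and 7.37 in 16-month samples and 7.04, 6.85, 6.41 and 6.81 in 10-month samples. The mean was 7.06 ± 0.25 at 16 months and 6.78 ± 0.26 at 10 months (SD, n = 4 each), and the ranges overlapped. On the arrays the log2 ratio was 0.20, -0.03, -0.72 and -0.56, so that the negative values came mainly from replicates 3 and 4, where the 16-month sample carried Cy5. The fitted ratio was -0.28 ± 0.12, or 0.824-fold, with a 95% interval from -0.55 to -0.0033 (limma unadjusted p = 0.0479, adjusted p = 0.957). The fitted dye effect was 0.36. HAND1 was above background in 0 of 4 Cy3 samples, so on every array 1 channel of the ratio was not above background. Each age held 2 samples in Cy5 and 2 in Cy3, so by design the age ratio is -0.28 with or without the dye term. Its SE was 0.12 with the dye term and 0.18 without it. With spot means the fitted ratio was -0.077 ± 0.055.

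EOMES was the only gene of the 7 with the same sign on all 4 arrays, which 9.37% of all tested probes also had. Its normalised log2 level was 7.02, 6.69, 7.02 and 6.88 at 16 months and 6.86, 6.49, 6.72 and 6.69 at 10 months. The ratio was -0.16, -0.20, -0.31 and -0.20 on replicates 1 to 4, a narrow spread, and the dye effect was small at 0.036. The fitted ratio was -0.22 ± 0.11, with a 95% interval from -0.48 to 0.05 (limma adjusted p = 0.957). These values come from a probe near the negative control. It was above background at 16 months on replicates 1, 3 and 4, and at 10 months on replicate 1 only. The filter of 2 arrays was thus met only through the 16-month samples, the age with the higher signal. With spot means the array ratios had both signs, at -0.09, -0.04, 0.14 and 0.02, and the fitted ratio was 0.0064 ± 0.049. With an offset of 16 the fitted EOMES ratio was -0.32 from the same spot medians.

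ASCL2 was the only gene of the 7 with a positive fitted ratio. Its normalised log2 level was 8.35, 7.20, 7.83 and 7.86 in 16-month samples and 8.71, 7.42, 8.57 and 7.80 in 10-month samples. The mean was 7.81 ± 0.47 at 16 months and 8.12 ± 0.62 at 10 months (SD, n = 4 each). Each array held both ages, so this spread of levels between arrays is not the spread of the ratio. The array ratios were 0.36, 0.22, 0.74 and -0.06, positive on 3 of 4 arrays. The fitted ratio was 0.31 ± 0.15, or 1.24-fold, with a 95% interval from -0.04 to 0.67 (limma adjusted p = 0.957).

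The size of the ASCL2 ratio moved with single arrays. It was 0.11 without replicate 3, which had the highest array ratio, and 0.52 without replicate 4, the array with a negative ratio. Without replicate 4 it passed (limma adjusted p = 0.0465), in a fit that leaves replicate 3 as the lone array of its dye orientation and in which 5.11% of all tested probes passed. With all 4 arrays it did not pass. No other gene of the 7 passed in any fit with an array left out.

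CDX2 did not differ between the ages beyond the spread of the arrays. Its normalised log2 level was 7.56, 7.21, 7.62 and 7.38 at 16 months and 7.64, 7.41, 7.34 and 7.35 at 10 months. The ratio was 0.08, 0.20, -0.28 and -0.02 on replicates 1 to 4. The fitted ratio was -0.0058 ± 0.12, with a 95% interval from -0.28 to 0.27 (limma adjusted p = 0.998), or from 0.823-fold to 1.21-fold.

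GATA3 had normalised log2 levels of 8.60, 8.52, 8.26 and 8.61 at 16 months and 8.52, 8.53, 7.87 and 8.35 at 10 months. Its ratio was -0.08, 0.0097, -0.38 and -0.25, negative on 3 arrays and near 0 on the other. The fitted ratio was -0.18 ± 0.12, with a 95% interval from -0.44 to 0.09 (limma adjusted p = 0.957). With spot means it was -0.075 ± 0.044, with positive ratios on replicates 1 and 2 and negative ones on replicates 3 and 4.

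The 3 probes of TFAP2C gave different patterns over the arrays. The brightest probe had normalised log2 levels of 14.65, 13.93, 14.96 and 14.59 at 16 months and 14.52, 14.37, 14.29 and 14.35 at 10 months. The 16-month levels had an SD of 0.43 and the 10-month levels an SD of 0.098 (n = 4 each). Its ratio was -0.12, 0.44, -0.67 and -0.25 and its fitted ratio -0.15 ± 0.14 (limma adjusted p = 0.957).

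The second TFAP2C probe (EMBV3_17753) was at 0.51, -0.43, -0.16 and 0.39, fitted at 0.079 ± 0.18. The third (EMBV3_27962) was at 0.35, -0.38, -0.95 and -0.12, fitted at -0.28 ± 0.18. Only on replicate 3 did the 3 probes share a sign. All 3 values moved with the array left out. Without replicates 1, 2, 3 and 4 in turn, the brightest probe was fitted at -0.011, -0.29, -0.046 and -0.26. The second probe ran from -0.16 without replicate 1 to 0.31 without replicate 2, and the third from -0.49 without replicate 4 to -0.071 without replicate 3. The fitted ratio of the mean over the 3 was -0.12. With spot means the brightest probe was at -0.081 ± 0.061.

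**Figure D2:**
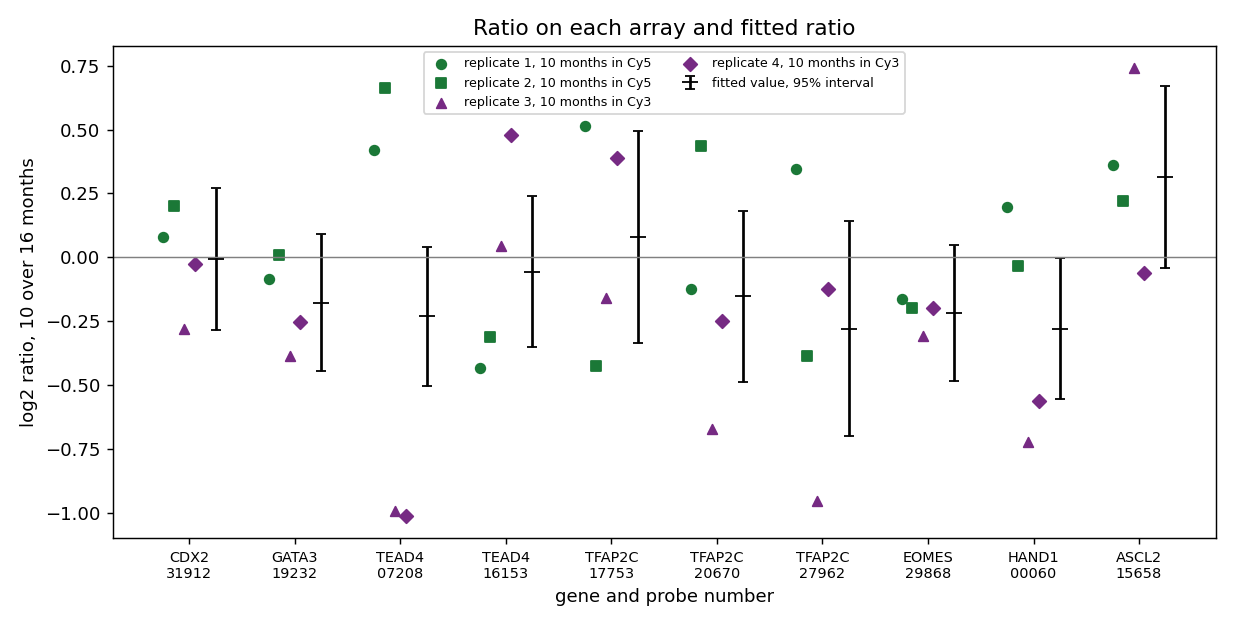
Log2 ratio of 10 over 16 months on each array for the 10 probes (coloured symbols, green where the 16-month sample carried Cy3 and purple where it carried Cy5), with the fitted ratio and its 95% interval in black. The 4 EOMES values lie together between -0.31 and -0.16, and those of the brighter TEAD4 probe lie apart by dye, at 0.42 and 0.66 against -0.99 and -1.01.

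**Figure D3:**
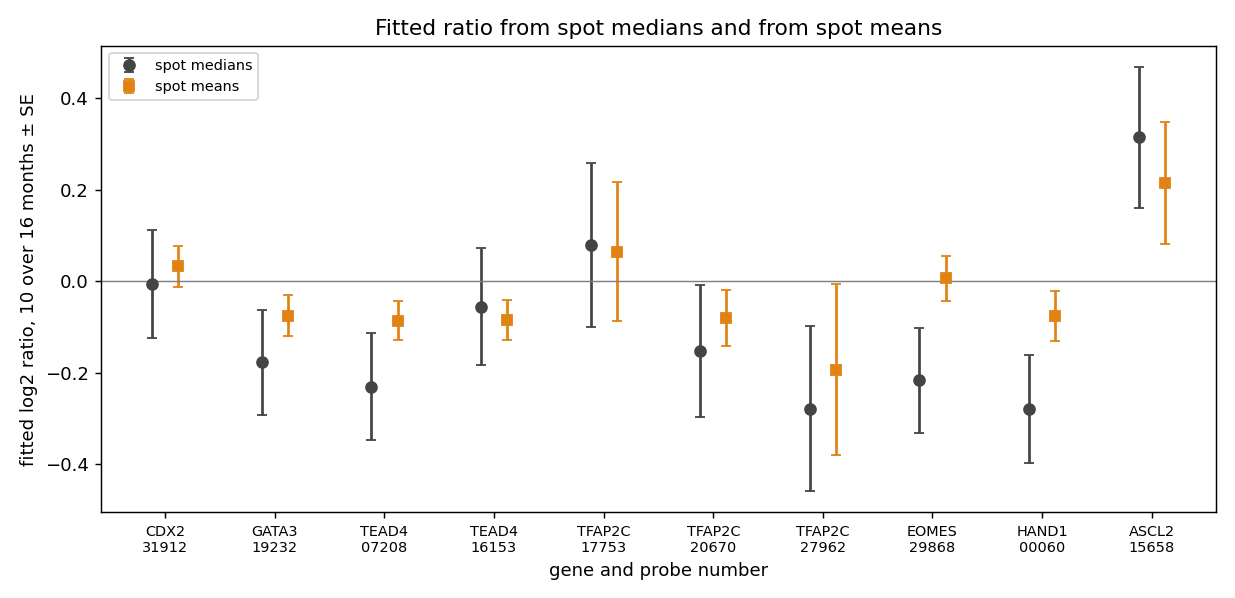
Fitted log2 ratio of 10 over 16 months with its SE from spot medians (dark circles) and spot means (orange squares), for the 10 probes. The EOMES ratio is -0.22 from medians and 0.0064 from means, and that of HAND1 is -0.28 from medians and -0.077 from means.

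**Figure D4:**
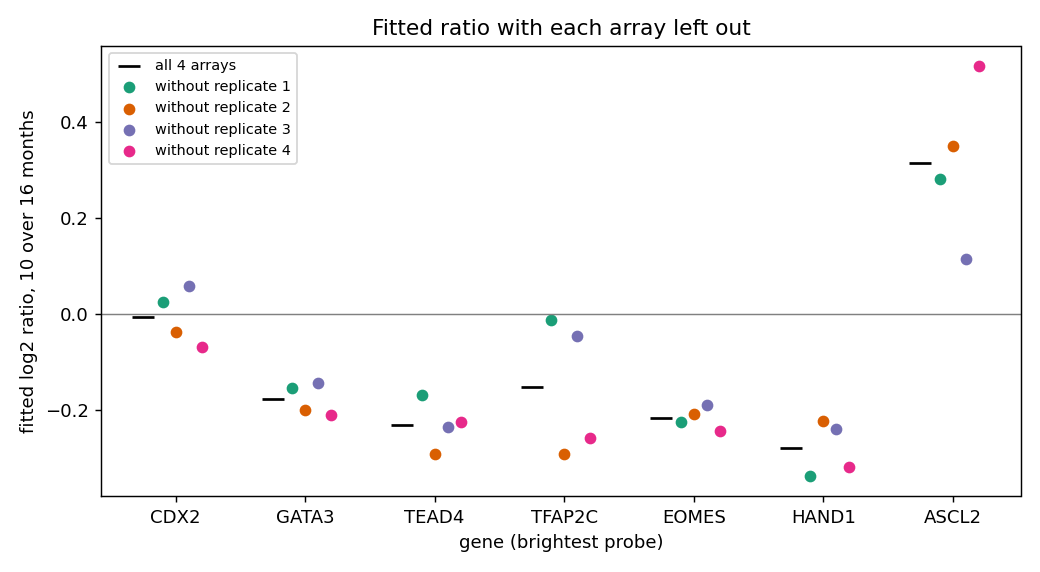
Fitted log2 ratio of 10 over 16 months for the brightest probe of each gene with all 4 arrays (black bar) and with each array left out (coloured points). ASCL2 lies between 0.11 and 0.52, CDX2 lies on both sides of 0, and GATA3, TEAD4, TFAP2C, EOMES and HAND1 stay below 0.

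Genes that act with TEAD4 were examined next, as a list of 18 genes of the Hippo pathway and TEAD partners. Of these, 17 were found on the array by symbol, 15 were tested and 0 passed. None had an unadjusted p under 0.05, 9 ratios were positive and 6 negative, and the median was 0.060 (-0.020 without replicate 2). YAP1 was not found under that symbol. Its paralogue WWTR1 lay at a mean of 44.5 times the negative control at 16 months and 40.6 times at 10 months, with a ratio of -0.18 ± 0.15. Means of this kind pool both dyes before normalisation.

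The members of that list with the smallest unadjusted p were VGLL1, a TEAD cofactor, at 0.24 ± 0.12, TEAD2 at 0.31 ± 0.16, and MOB1A, an activator of the LATS kinases, at -0.23 ± 0.13. The MOB1A array ratios of 0.36, 0.28, -0.99 and -0.58 went with the dye. Its probe lay at a mean of 1.77 times the negative control at 16 months and 1.65 times at 10 months. TEAD1 was at 0.12 ± 0.17, the kinase LATS2 at 0.060 ± 0.15, and AMOT, which holds YAP1 in the cytoplasm, at 0.12 ± 0.23. AMOT had array ratios from -0.49 on replicate 3 to 1.01 on replicate 1.

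A second list held 20 other transcription factors of trophoblast, of which 18 were tested and 0 passed. None had an unadjusted p under 0.05, 8 ratios were positive and 10 negative, and the median was -0.030 (0.042 without replicate 2). ETS2, which regulates trophoblast genes, was at -0.43 ± 0.22, with -0.43, -0.54, -1.13 and 0.37 on replicates 1 to 4. ARID3A was at 0.26 ± 0.14 and ELF3 at -0.20 ± 0.12. The ELF3 probe was above background in 3 of 4 samples at 16 months and 2 of 4 at 10 months. GATA2, a paralogue of GATA3, was at -0.071 ± 0.17, and its array ratios of 0.57, 0.60, -0.25 and -1.20 went with the dye. ELF5 was at 0.10 ± 0.14, KLF5 at -0.13 ± 0.13 and TFAP2A, a paralogue of TFAP2C, at 0.070 ± 0.23.

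**Figure D5:**
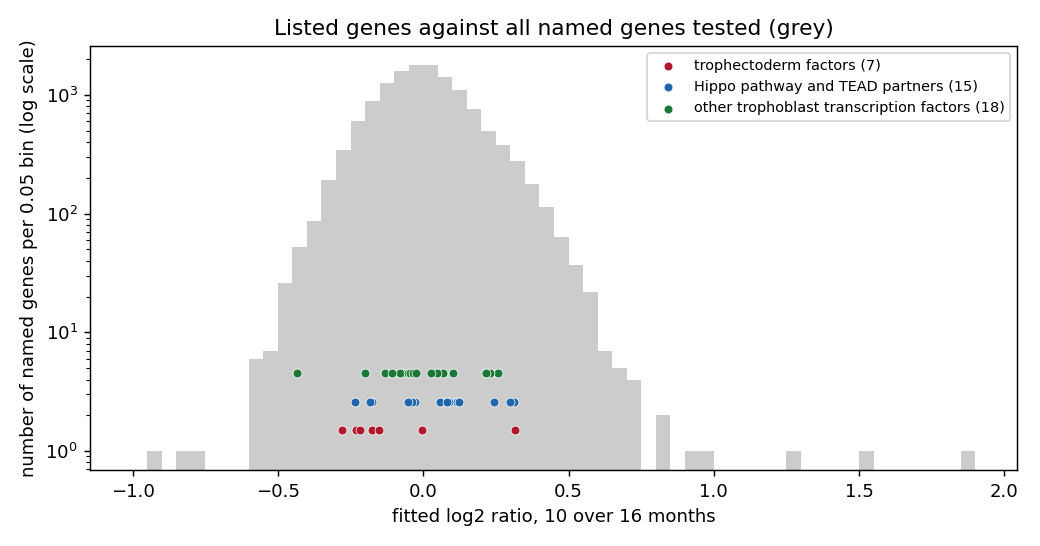
Fitted log2 ratios of 10 over 16 months for the 7 trophectoderm factors (red), 15 Hippo pathway genes (blue) and 18 other trophoblast transcription factors (green), over the counts of all 13495 named genes tested (grey, log scale). The red points lie between -0.28 and 0.31 (their height has no meaning), with CDX2 inside the interquartile range of all genes, -0.10 to 0.10, and the other 6 outside it.

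Likeness to each gene was measured as the Euclidean distance between the 4 array ratios, over the 8946 named genes whose spots passed the background threshold in Cy5 and in Cy3 on every array. The nearest to CDX2 were ACADVL and PLEKHG2, at distances of 0.070 and 0.083. The nearest to GATA3 were BLOC1S4 and IFT20 (0.070 and 0.072). EOMES was nearest to PLPP3 and RNF121 (0.070 and 0.082). HAND1 was nearest to TLK1 and COX5B (0.11 for both). ASCL2 was nearest to LOC508153 and LMNB1 (0.088 and 0.11), and TFAP2C to TLE4 and COP1, at a distance of 0.13 for both. TEAD4 had more distant neighbours, PEPD at 0.24 and ZC3H18 at 0.28, and both shared its change of sign between the dyes. With 4 arrays, such a likeness is a description of these arrays.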

How the data were processed

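The deposited scan files gave, per the file headers, linear intensity of each of 45220 spots and of its local background in the Cy5 and Cy3 channels, not normalised. The authors' deposited table of log2 ratios served as an alternative. Limma is the tool named per the submitters' processing notes. The columns of that table correlated with the Cy5 over Cy3 ratios computed here at 0.978 to 0.991 and had medians of -0.016, -0.014, -0.0057 and -0.0090. Their direction thus matched Cy5 over Cy3, and whether they were centred is unknown.

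Background was corrected by normexp (offset 50) on spot medians in limma 3.58.1 (R 4.3.3) leaving out spots set aside by the scan software, and ratios were loess-normalised within arrays with control spots at weight 0. A probe was tested where 2 or more arrays had it above background in Cy5 or Cy3: 175 were left out for a set-aside spot and 7294 as dim, which left 36325. The model (lmFit, eBayes) held a dye and an age coefficient. It had 2 residual degrees of freedom and 5.72 from the prior, and its 95% interval reached a median of 0.30 to either side. Levels for each age came from the same data after Aquantile scaling between arrays. Single-array ratios still hold the dye effect. The fit code was also run on simulated ratios with planted changes and independent noise. That run held no array or bull effects, so it checks the code and not these data.

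Symbols came from the platform annotation (21790 probes with 1 symbol, 22004 with none, 0 with several), with older ones updated through a RefSeq table for ARS-UCD2.0. No coordinates or probe sequences are given. Named were all 7 genes with every probe, and from 2 lists the 3 genes of smallest unadjusted p and a fixed set of regulators. Members and lists were chosen with earlier results of these data known. The p-values measure only the spread between these arrays, on 1 slide, and their number limits the precision.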

Additional observations from a re-analysis of the deposited data

How the results depend on the processing

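Each of the 7 ratios was recomputed under up to 17 alternatives. GATA3, TEAD4 and HAND1 kept a negative sign in all that gave a value. Some alternatives leave the fitted ratio unchanged by construction: other filters, no dye term, other eBayes options and separate channels. For genes with 1 probe, so does the mean over probes. The sign in these was fixed in advance. The filter for signal in both channels on all arrays left out EOMES and HAND1. The CDX2 ratio, near 0, turned positive with spot means (0.033), with no background correction (0.00058) and with the sign of replicate 3 turned (0.081), and ran from -0.069 to 0.058 with an array left out. EOMES turned to 0.0064 with spot means. With the sign of replicate 3 turned, TFAP2C was at 0.040 and ASCL2 at -0.057. Leaving out an array gave 0.11 to 0.52 for ASCL2, which passed only without replicate 4 (limma adjusted p = 0.0465, against 0.733 to 1.00 in its other fits). The count of all probes past the adjusted threshold was 0 in every setting with 4 arrays (1439 at an unadjusted limma p under 0.05 as reported, 1445 with spot means), and 0 to 1858 with an array left out (6 without replicate 3, 1858 without replicate 4). Of the 10 probes, 5 were above background in all samples with 3 median absolute deviations and 4 with the highest control spot as threshold, against 8. The causes of these changes were not tested. EOMES and HAND1 are limited by signal over background.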

Other observations

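The 3 genes of this paragraph were chosen after their values were seen. Among the trophoblast factors outside the set of 7, MAFK, a small Maf protein, had ratios of -0.37 and -0.50 on replicates 1 and 2 and 0.59 and 0.39 on replicates 3 and 4. Its fitted dye effect was -0.46 and its age ratio 0.027 ± 0.12. FOSL1, an AP-1 subunit, was at 0.52, -0.93, 0.61 and 0.66, and its fitted age ratio was 0.21 ± 0.22, with replicate 2 alone on the other side of 0. TFEB, a regulator of lysosomal genes that is needed for the mouse placenta, lay at a mean of 210 times the negative control at 16 months and 286 times at 10 months. These means pool Cy5 and Cy3 readings before normalisation, so they need not follow the age ratio, which was 0.23 ± 0.14. None of the 3 genes passed the adjusted test (limma adjusted p = 0.991, 0.961 and 0.957).

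Ratios from spot means and from spot medians correlated over tested probes at 0.689, 0.706, 0.814 and 0.713 on replicates 1 to 4, as a description across probes. In the authors' deposited table the EOMES ratios, turned to 10 over 16 months, were -0.16, -0.18, -0.25 and -0.18.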
